A study of Neurospora crassa with 6 samples.

Results

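The genes described here lie at both ends of linkage group V of the filamentous fungus Neurospora crassa. They share the chromosome of NCU07152 and lie wholly within 200 kb of base 1 or of the outermost counted base, 6435860. The rule selected 111 of the 9757 genes in the count table, 41 at the left end and 70 at the right end, by position alone. The limit of 200 kb and the choice of NCU07152 were set with earlier results of these data known.

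RNA was measured by RNA sequencing in 6 mycelium libraries. A strain with cac-1 knocked out gave 3 of them and a strain with both cac-1 and suz-12 knocked out gave the other 3, the single and the double knockout below. Both were grown overnight, with 1.5% sucrose in Vogel's minimal medium. By the labels both strains lack cac-1 and differ in suz-12. No wild type entered the comparison. The labels do not say whether replicates came from separate cultures or isolates, so the p-values measure the spread between these libraries, which may be technical.

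In Neurospora, the Polycomb repressive complex PRC2, of which SUZ12 is a subunit, methylates lysine 27 of histone H3. The mark forms large domains of facultative heterochromatin, many of them near chromosome ends, and genes inside such domains are mostly silent in growing hyphae. CAC-1 belongs to chromatin assembly factor 1 (CAF-1), which loads new histones onto freshly replicated DNA. The left end of linkage group V carries the nucleolus organizer, the array of ribosomal RNA genes. In the RefSeq table of the NC12 assembly, 3 ribosomal RNA genes are the outermost genes there, ahead of the first gene of the count table.

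Total counts ran from 7989915 to 28327383 per library, with single-knockout replicate 1 the shallowest. No count fell on cac-1 in any library. NCU05460 was read as suz-12 from general knowledge, since neither table pairs them. It had 74, 207 and 197 counts in the single and 54, 70 and 55 in the double knockout. The gene changed by -1.65 on the log2 scale (SE 0.246, edgeR adjusted p = 8.20e-05), and reads remained at the locus in every double-knockout library. All 3 matA genes of the mating-type locus were at 0 counts in every single-knockout library and had counts in every double-knockout library. The strains thus differed at that locus too, and an effect of strain background cannot be told apart from the loss of suz-12. All 5 hyphal marker genes were detected, and their summed level was 1860 to 2110 CPM (counts scaled to library size with TMM factors) in the single and 2750 to 3210 CPM in the double knockout. Most of that sum was hex-1, which was called higher, while so was called lower and ham-2, chs-1 and chs-4 were not called. The 5 conidial marker genes summed to 183 to 331 and 136 to 164 CPM, with con-8 called lower, con-6 called higher and 3 not called. The 4 sexual tissue genes summed to 1490 to 3030 and 1010 to 1740 CPM, mostly asd-1, with poi-2 called lower and 3 not called. The part of these differences in the results below was not tested.

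The ends differed in what they showed. In the outermost 26 kb of the right end most genes had almost no counts in the single knockout, and 10 of the 11 genes counted there were called higher in the double knockout. Of these 10, 7 passed the filter on low counts through the double knockout alone, which selects for genes that are higher there. The inner edge of the 26 kb was also drawn from these calls. The number of these 10 genes is therefore given as a description. The other 3, NCU17053, NCU07149 and NCU07144, would have passed on the single-knockout libraries alone. On the left, 5 genes were higher and 4 lower, each by about 4-fold or less. At the right end 23 of 67 tested genes (34.3%) were called higher at an edgeR adjusted p under 0.05, where 16.1% of all 9148 genes tested were called higher. At the left end the share was 12.8% (5 of 39), below that of all genes. Of the 23 right-end genes called higher, 9 passed the filter through the double knockout alone, and of the 5 at the left end 0 did. Lower calls made up 7.46% at the right end (5 of 67) and 10.3% at the left end (4 of 39), against 11.9% of all genes. Over all genes 1476 were called higher and 1093 lower, a split that became 1038 and 1861 on library totals and 1299 and 1410 with upper-quartile scaling. The median log2 fold change was 0.23 at the right end, 0.030 at the left end and -0.0009 over all genes tested. The left-end median lay at -0.040 with upper-quartile scaling, at -0.16 on library totals, which put all genes at a median of -0.20, and at -0.011 without single-knockout replicate 1. At the right end 16 and at the left end 5 of these rises were 2-fold or more, a size that 8.46% of all genes reached. No gene of either end was called with a fall of 2-fold or more, where 2.89% of all genes were. At an unadjusted edgeR p under 0.05, 10 of 67 right-end and 5 of 39 left-end genes were lower. The share over all genes at that threshold was not computed. The difference between the ends was described by these counts and medians and was not tested.

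**Figure D1:**
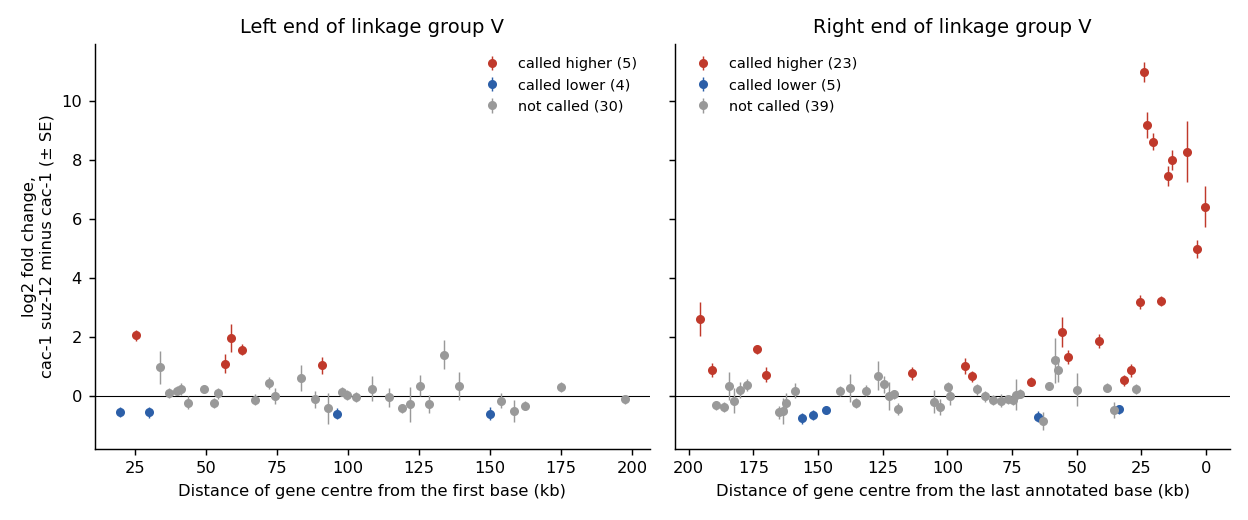
Log2 fold change (double minus single knockout, bars are SE from edgeR) against distance in kb from the end, for the 39 left-end and 67 right-end genes tested. Red genes were called higher, blue genes lower. The right panel ends in a group of 10 genes between 3.18 and 10.999, while no left-end gene exceeds 2.06. For NCU07151, NCU07145 and NCU17054 the fitted value is drawn, though the text gives only a lower bound. Of the 10, 7 passed the filter on low counts through the double knockout alone.

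Along the right arm, the large changes began between 2 neighbouring genes. NCU07153 (6407905 to 6409506, minus strand) stood at 154, 191 and 139.1 CPM in single-knockout replicates 1 to 3 and at 213, 193 and 162 CPM in the double knockout. The libraries overlapped and the gene was not called (log2 fold change 0.23, SE 0.167, edgeR adjusted p = 0.322). The next gene outward, NCU17053 (6410103 to 6410668, minus strand), had 1.64, 2.52 and 2.50 CPM in the single and 21.1, 24.9 and 17.0 CPM in the double knockout. Every double-knockout library lay above every single-knockout library (log2 fold change 3.18, SE 0.233, edgeR adjusted p = 2.65e-08). From NCU17053 to the last counted base, over 25.8 kb, 10 of 11 genes were called higher and the other, NCU07146, had too few counts in both strains to be tested. The inner edge of this interval was set by the calls themselves, so the share called higher inside it is only a description. The RefSeq table gives no name to any of the 11 genes in that interval, so their functions are not described here.

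NCU07152 (6411400 to 6412219, minus strand, 3 counted intervals) reached the highest level of the interval. It had 4, 4 and 10 counts in the single and 16454, 15155 and 12151 counts in the double knockout, or 0.469, 0.142 and 0.463 against 729, 519 and 720 CPM. This was a log2 fold change of 10.999 in the fit (SE 0.328, edgeR adjusted p = 2.19e-12). The gene had at most 10 counts in any single-knockout library, so the size of its rise rests on few counts. Per kb of coding length it ranked 8935 among all 9757 genes in the single and 196 in the double knockout. Among the 111 genes near both ends it moved from rank 96 to rank 2.

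The genes just outward of it followed the same direction. NCU07151 (6412876 to 6413555, plus strand) had 0, 0 and 2 counts in the single and 540, 560 and 470 in the double knockout. As it stood at or under 3 counts in each single-knockout library, its change is a lower bound set by 3 counts in the shallowest library (0.351 CPM), at least 67.3-fold higher, or at least 170-fold without single-knockout replicate 1 (edgeR adjusted p = 1.90e-10). NCU07150 (6414593 to 6416401, plus strand) had the same single-knockout counts as NCU07152, 4, 4 and 10, and reached 131, 120.6 and 130 CPM in the double knockout. The double-knockout libraries lay close together, at 127 ± 5.87 CPM (SD, n = 3), and the rise was 8.63 on the log2 scale (SE 0.279, edgeR adjusted p = 2.26e-12). The size of this rise, too, rests on few single-knockout counts.

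NCU07149 (6417640 to 6419476, plus strand) had the highest single-knockout level of the 11 genes, at 40.3, 36.97 and 44.7 CPM. In the double knockout it stood at 377, 354 and 404 CPM, higher by 3.22 on the log2 scale (SE 0.164, edgeR adjusted p = 3.28e-10). Its neighbours on both sides, NCU07150 and NCU07148, had at most 10 counts in any single-knockout library.

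NCU07148 (6420073 to 6422165, minus strand) and NCU07147 (6422621 to 6422968, plus strand) lie back to back. NCU07148 had 0, 8 and 4 counts in the single and 664, 1149 and 721 in the double knockout. NCU07147 had 0, 4 and 4 counts and 638, 1109 and 725 counts in the same libraries. Counts of NCU07147 were thus 0.961, 0.965 and 1.01 times those of NCU07148 in double-knockout replicates 1 to 3. The coding lengths differ, at 900 bp for NCU07148 and 348 bp for NCU07147. Per kb NCU07148 stood at 41.3 and NCU07147 at 104.6 CPM in the double knockout. The log2 fold changes of NCU07148 and NCU07147 were 7.48 (SE 0.335, edgeR adjusted p = 1.09e-10) and 7.999 (SE 0.344, edgeR adjusted p = 6.48e-11). Neither gene had more than 8 counts in any single-knockout library, so both sizes rest on few counts. The genes lie on opposite strands and neither their counted intervals nor their RefSeq spans overlap.

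The last 4 genes before the end differed widely in the level they reached. NCU07146 (6423834 to 6427067, plus strand), the longest gene of the interval, stayed near 0, with 2, 0 and 0 counts in the single and 8, 2 and 0 in the double knockout, and did not pass the filter on low counts. NCU07145 (6428125 to 6429262, plus strand) had 0 counts in all single-knockout libraries, the one such gene of the 111, and 38, 73 and 22 counts in the double knockout. It was at least 5.21-fold higher, or 13.2-fold without single-knockout replicate 1 (edgeR adjusted p = 2.58e-05). NCU07144 (6431522 to 6433447, minus strand) went from 2.58, 0.853 and 1.57 CPM to 41.2, 42.9 and 56.6 CPM, higher by 4.99 on the log2 scale (SE 0.294, edgeR adjusted p = 9.95e-09). The outermost gene, NCU17054 (6435237 to 6435860, plus strand), had 0, 2 and 0 counts in the single and 88, 62 and 73 in the double knockout. It was at least 9.82-fold higher, or 24.8-fold without single-knockout replicate 1 (edgeR adjusted p = 2.35e-06).

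**Figure D2:**
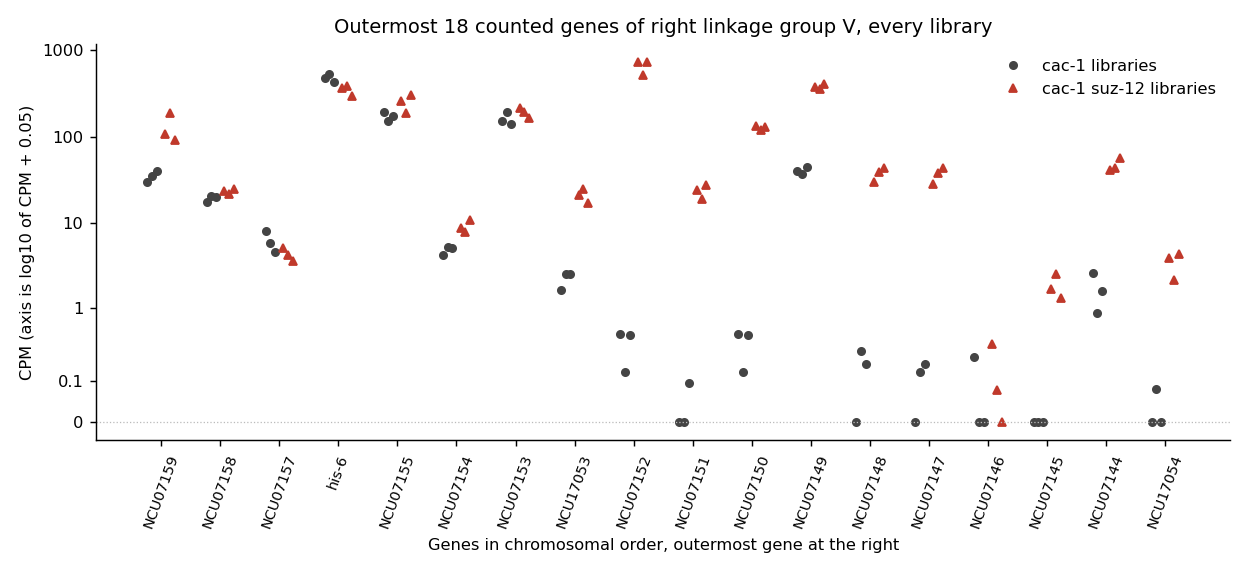
CPM in each of the 6 libraries for the outermost 18 counted genes of right linkage group V in chromosomal order (the axis is log10 of CPM + 0.05, circles are single-knockout and triangles double-knockout libraries). From NCU17053 outward the triangles lie above the circles at every gene except NCU07146, and inward of it they overlap or lie close to the circles at most genes.

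Together the 11 outermost genes gave 45.7, 41.1 and 50.1 CPM in the single knockout, which was 0.837% to 0.937% of all CPM of the right end. In the double knockout they gave 1390, 1160 and 1450 CPM, or 18.2% to 23.1%. The 11 genes were delimited by the calls, so that they rose as a group follows in part from that choice. The other 59 right-end genes summed to 5120, 4870 and 5300 CPM in the single and to 5280, 5240 and 4820 CPM in the double knockout, so their summed level overlapped between the strains. In the single knockout 9 of the 11 outermost genes lay under 1 CPM per kb, and in the double knockout 1 did, NCU07146. The median fitted log2 fold change of the 10 genes tested was 7.74. With the 3 genes at or under 3 counts set to their lower bounds it was 5.53. The 10 calls held in each of the fits that left out 1 library, where the log2 fold change of NCU07152 ran from 10.44 to 11.47. Of these genes 7, including NCU07152, passed the filter on low counts through the double knockout alone. Staying called in these fits is no separate support for those 7.

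Of the other 57 tested right-end genes, 13 were called higher (22.8%) and 5 lower (8.77%), with a median log2 fold change of 0.17. The outermost run was set aside by its calls, which lowers the share called higher by construction. Elsewhere on linkage group V, away from the ends, 14.8% of 1383 tested genes were called higher and 13.4% lower. The 13 higher genes were scattered in runs of at most 2 neighbours. NCU07200 (6261985 to 6262974, plus strand) rose from 201, 180 and 189 to 558, 657 and 483 CPM, or 1.58 on the log2 scale (SE 0.162, edgeR adjusted p = 1.46e-06). With 660 CPM per kb in the double knockout it ranked 4 among the 111 genes, after rank 8 in the single knockout. NCU07159 (6394005 to 6395261, plus strand) rose from 29.6, 35.3 and 39.7 to 107, 186 and 91.1 CPM, or 1.87 on the log2 scale (SE 0.239, edgeR adjusted p = 5.80e-05). For both genes the strains did not overlap, and replicate 2 of the double knockout was the highest library. NCU07155 and NCU07154, next to NCU07153, were called higher by 0.52 and 0.87 on the log2 scale (edgeR adjusted p = 0.0396 and 0.00819), and the libraries of NCU07155 overlapped. The call of NCU07155 was lost without single-knockout replicate 1, 2 or 3 or double-knockout replicate 1 or 3 (edgeR adjusted p up to 0.188), and also on library totals and with upper-quartile scaling. That of NCU07154 held whichever library was left out. The RefSeq span of NCU07155 overlaps that of his-6, and those of NCU07154 and NCU07153 overlap each other.

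The 5 lower genes at the right end were all well expressed in the single knockout, at 15.7 CPM per kb or more. NCU07193 (6279035 to 6280414), NCU07192 (6282465 to 6285085) and NCU07191 (6287426 to 6289962) are neighbours. NCU07192 fell from 1046, 825 and 956 to 657, 591 and 542 CPM (log2 fold change -0.66, SE 0.159, edgeR adjusted p = 0.00512). NCU07193 and NCU07191 changed by -0.77 (SE 0.179, edgeR adjusted p = 0.00400) and -0.48 (SE 0.140, edgeR adjusted p = 0.0180). For each of these 3 genes every double-knockout library lay below every single-knockout library. NCU07167 (6370232 to 6371322) changed by -0.71 (SE 0.185, edgeR adjusted p = 0.00856). The histidine biosynthesis gene his-6 (6401492 to 6403223), which lies 32.6 kb from the end, changed by -0.47 (SE 0.161, edgeR adjusted p = 0.0399).

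Among the lower genes, the calls of NCU07193 and NCU07192 held whichever library was left out, and the other 3 did not. The call of NCU07191 was lost without single-knockout replicate 1 (edgeR adjusted p = 0.0623) or double-knockout replicate 1 (0.0711), and that of NCU07167 without double-knockout replicate 3 (0.0511). For his-6 it was lost without single-knockout replicate 1 or 2 or double-knockout replicate 1 or 3 (edgeR adjusted p from 0.0797 to 0.145). Lower right-end genes numbered 3 without single-knockout replicate 1, double-knockout replicate 1 or double-knockout replicate 3. On library totals 18 right-end genes were higher and 10 lower.

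Among right-end genes with a name, amt (6344947 to 6346140) rose from 17.9 ± 2.21 to 28.2 ± 4.31 CPM (SD, n = 3 in either strain), higher by 0.65 on the log2 scale (SE 0.173, edgeR adjusted p = 0.00960). It was not called without double-knockout replicate 3 (edgeR adjusted p = 0.0588) or on library totals (0.0727). The nitrate assimilation gene nit-10 (6248468 to 6250177) stood at 352, 355 and 496 CPM in the single and at 298, 318 and 306 CPM in the double knockout. It was lower in every double-knockout library but missed the threshold (log2 fold change -0.38, edgeR adjusted p = 0.0938), which it passed on library totals (0.0182). The Arp2/3 complex gene arp2 (6358491 to 6359964), needed for branched actin filaments, stood at 295 ± 26.6 and 271 ± 36.2 CPM (SD, n = 3 each) and overlapped. The others, the family 6 glycoside hydrolase gene gh6-3, the serine/threonine kinase gene stk-8, the ropy gene ro-12 and rib-4, were not called, with edgeR adjusted p from 0.271 to 0.598. Their log2 fold changes were 0.17, -0.17, -0.51 and -0.25. The named gene nearest to the right end was his-6, so that none lay in the outermost 26 kb.

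At the left end, the outermost counted gene, NCU08882 (19053 to 20232, plus strand), was an abundant transcript at 203, 211 and 172 CPM in the single and 121.3, 158 and 120 CPM in the double knockout. It was lower in all 3 double-knockout libraries (log2 fold change -0.55, SE 0.162, edgeR adjusted p = 0.0175). The next gene, NCU08881 (21950 to 22450), had 0, 4 and 4 against 12, 14 and 2 counts and did not pass the filter on low counts. NCU08880 (24454 to 26470, minus strand) rose from 5.62, 5.40 and 7.37 to 23.4, 28.6 and 24.96 CPM. Its rise of 2.06 on the log2 scale was the largest of the left end (SE 0.191, edgeR adjusted p = 4.77e-07), and the strains were far apart. The fourth gene inward, NCU08879 (28073 to 31603), changed by -0.57 (SE 0.202, edgeR adjusted p = 0.0442). Of the outermost 4 left-end genes 1 was thus called higher and 2 lower, and both lower calls depended on which libraries entered the fit.

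The other 4 left-end genes called higher lay between 55.8 and 91.6 kb from base 1. NCU08872 (55846 to 57427), NCU16911 (58505 to 59011) and NCU08870 (62584 to 63078) are neighbours and formed the longest run of the left end, over 7.23 kb. NCU08870 rose from 7.26, 7.32 and 8.80 to 24.95, 17.8 and 27.1 CPM (log2 fold change 1.57, SE 0.200, edgeR adjusted p = 1.60e-05). NCU16911 had 4, 16 and 12 counts in the single and 46, 34 and 55 in the double knockout (log2 fold change 1.95, SE 0.476, edgeR adjusted p = 0.00567). NCU08872 and NCU08863 (90241 to 91600) changed by 1.09 (SE 0.339, edgeR adjusted p = 0.0235) and 1.03 (SE 0.284, edgeR adjusted p = 0.0120), and all 4 had no overlap between the strains. The highest level that any of these 4 genes reached in the double knockout was 23.3 ± 4.88 CPM (SD, n = 3), for NCU08870.

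NCU08861 (95502 to 96943) and mus-18 (148547 to 150793) were the remaining lower genes of the left end. NCU08861 changed by -0.61 (SE 0.191, edgeR adjusted p = 0.0251), with 48.6, 57.5 and 38.7 CPM in the single and 35.2, 36.1 and 23.5 CPM in the double knockout. The ultraviolet damage endonuclease gene mus-18 stood at 20.2, 16.3 and 27.6 CPM in the single and 11.96, 17.6 and 12.4 CPM in the double knockout. Its libraries overlapped, and its change was -0.61 (SE 0.216, edgeR adjusted p = 0.0463). The poly(ADP-ribose) polymerase gene parp (132882 to 135085), also a gene of the DNA damage response, stood at 16.6, 12.8 and 15.8 CPM in the single and 37.6, 16.2 and 65.2 CPM in the double knockout. Replicate 2 of the double knockout lay among the single-knockout libraries and the other two lay above them. The change of parp did not pass the threshold (log2 fold change 1.40, SE 0.501, edgeR adjusted p = 0.0925), and without that library it was 1.78 and passed it (edgeR adjusted p = 2.33e-05).

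Few of the left-end calls held under every alternative. The calls of NCU08880, NCU16911 and NCU08870 held in each fit that tested them. NCU08872 was not called without single-knockout replicate 1 or 2 or double-knockout replicate 1 or 3 (edgeR adjusted p from 0.0529 to 0.141), nor NCU08863 without double-knockout replicate 1 (0.111). None of the 4 lower calls held throughout. That of NCU08882 was lost without single-knockout replicate 1 or 2 or double-knockout replicate 1 or 3, and that of NCU08861 without single-knockout replicate 1 or 2 or double-knockout replicate 3. NCU08879 was not called whichever library was left out (edgeR adjusted p from 0.0574 to 0.129). The call of mus-18 was lost without single-knockout replicate 1 or 3 or double-knockout replicate 1 or 3. It was also lost with at least 10 counts in every library (edgeR adjusted p = 0.052) and with counts thinned to the smallest library (0.107). With limma-voom it was lost too (limma-voom adjusted p = 0.0669). The same filter and the thinned counts lost NCU08879 (edgeR adjusted p = 0.0511 and 0.0713), and the thinned counts lost NCU08872 (0.168). Lower left-end genes numbered 1, 1 and 2 without single-knockout replicate 1, 2 or 3, and 1, 3 and 0 without double-knockout replicate 1, 2 or 3. Higher left-end genes numbered 3 without double-knockout replicate 1.

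The calls were then mapped in steps of 50 kb from each end, each gene placed by its inner edge. At the right end the shares called higher were 76.5% of 17 tested genes in the outermost step, then 25% of 20, 7.14% of 14 and 25% of 16. Over all genes tested 16.1% were called higher. In the outermost step, 7 of the genes from NCU17053 outward passed the filter on low counts through the double knockout alone, which raises its share and median. The medians of the log2 fold change in the same steps were 3.22, 0.14, 0.11 and 0.00030. Steps at the left end had shares of 12.5% of 8, 26.7% of 15, 0% of 10 and 0% of 6, with medians of 0.13, 0.14, -0.010 and -0.25. Neither end therefore showed an even decline from the tip to 200 kb, and at the right end the share called higher was largest in the outermost step.

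The limit of 200 kb divides the right arm within a stretch of changed genes. Just inside it lay NCU07208, with 0, 6 and 2 against 2, 4 and 1 counts and not tested, and NCU07207, with 0, 17 and 10 against 41, 127 and 29 counts (log2 fold change 2.61, SE 0.566, edgeR adjusted p = 0.00289). Just outside it lay NCU07209, at 0.545 and 6.02 CPM in the single and double knockout, and NCU07210, at 12.7 and 40.8 CPM. In the next steps inward, 14 of 15 tested genes between 200 and 250 kb (93.3%) and 5 of 9 between 250 and 300 kb (55.6%) were called higher, with medians of 3.29 and 1.93. Between 300 and 350 kb it was 4 of 10, and between 350 and 400 kb 7 of 10. Over all genes tested the share was 16.1%. Between 200 and 250 kb, 3 of 18 counted genes stood at or under 3 counts in every single-knockout library. How many genes of these steps passed the filter on low counts through the double knockout alone was not computed. The right arm thus held a changed tip and a second changed stretch beyond 200 kb, separated by about 150 kb in which between 7.14% and 25% of genes per step were called higher. At the left end NCU08847 and NCU07814 lay just inside the limit, at 123 and 63.5 CPM in the single and 151 and 58.5 CPM in the double knockout, and were not called. NCU07813 and NCU07812 lay just outside it, each under 1 CPM in both strains. Between 200 and 250 kb from base 1, 1 of 13 tested genes was called higher and 5 lower, where 16.1% and 11.9% of all genes tested were.

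**Figure D3:**
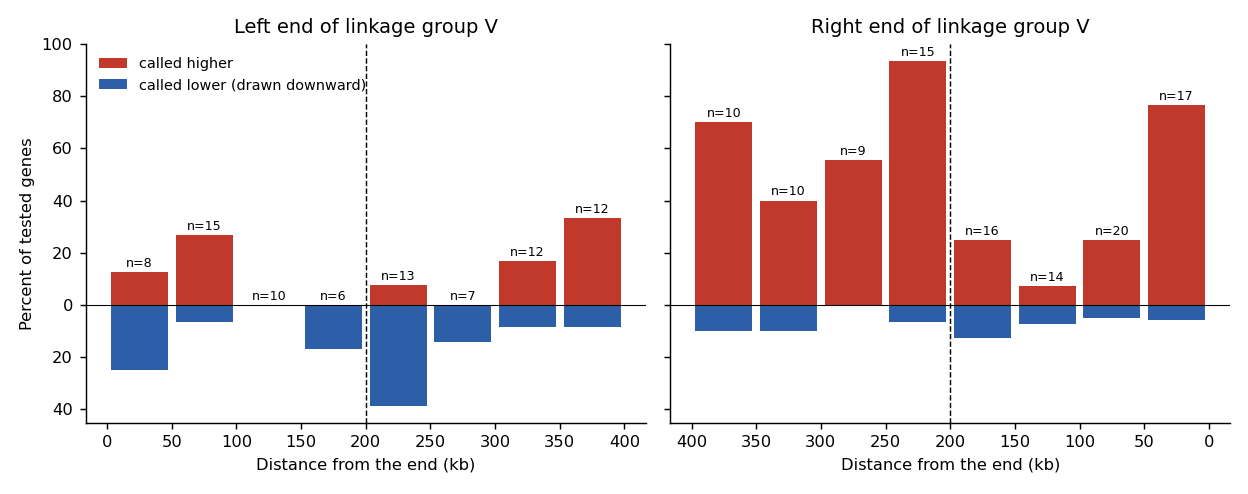
Percent of tested genes called higher (red, upward) and lower (blue, downward) in steps of 50 kb out to 400 kb from each end, with the number tested above each bar and a dashed line at 200 kb. On the right, the outermost step (76.5%) and the step beyond 200 kb (93.3%) stand above the steps between them. Over all genes tested 16.1% were called higher and 11.9% lower.

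Levels per kb of coding length were compared between genes grouped by their calls. In the single knockout the 28 genes called higher at both ends had a median of 2.24 CPM per kb, the 69 genes not called 7.62 and the 9 genes called lower 35.9, beside 12.9 over all genes tested. In the double knockout the same groups stood at 14.8, 7.58 and 23.5 CPM per kb. Of the right-end genes among the 28, 9 passed the filter on low counts through the double knockout alone. That selects for low levels in the single knockout, so the low median of the higher genes is only a description. Of the 28 higher genes 27 had every double-knockout library above every single-knockout library, and of the 9 lower genes 8 had every one below. Over all members tested, 32 lay wholly above and 17 wholly below, or 30.2% and 16.0% of the 106, against 22.4% and 19.8% of all genes tested. The coding length of higher genes had a median of 1050 bp, against 1190 bp for all 106 tested members and 1320 bp for all genes tested. Genes of 1 counted interval made up 10 of the 28 higher genes (35.7%), 0 of the 9 lower genes and 20.6% of all genes tested. These groups were defined by the calls, and their differences were not tested.

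**Figure D4:**
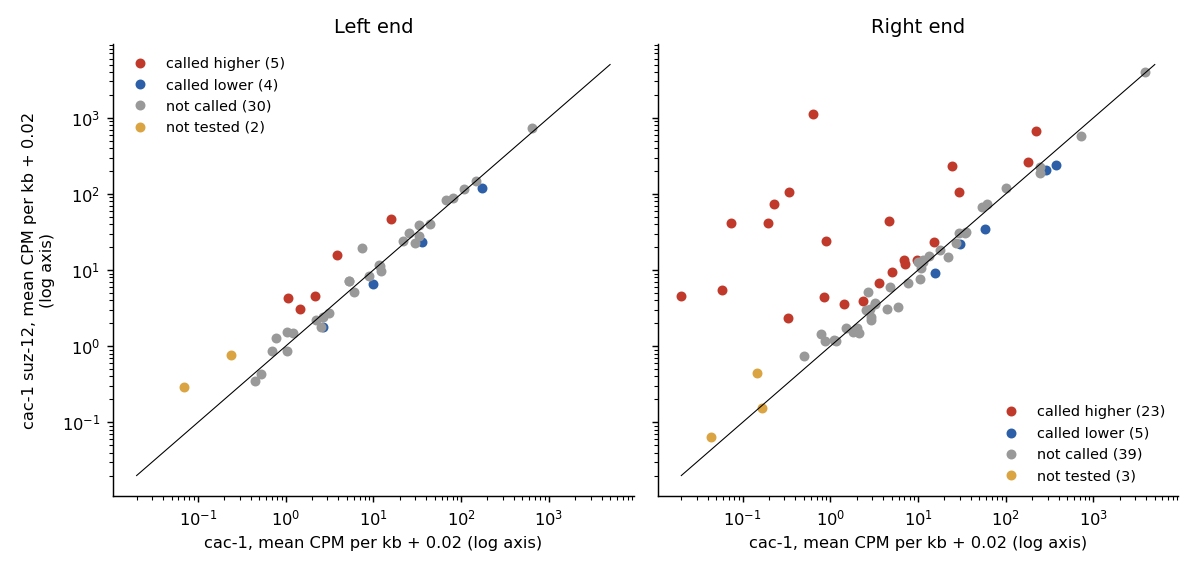
Mean CPM per kb of coding length + 0.02 in the double knockout against the single knockout, for the 41 left-end and 70 right-end genes on log axes, with the line of equality. Most genes lie along the line at both ends, and the right panel holds a group of red genes under 1 CPM per kb in the single knockout that lie far above the line.

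The most abundant genes near the ends included called and uncalled ones. Besides NCU07152, NCU07200, NCU07192 and NCU08882, which were called and are described above, several were not called. NCU07182 (6314556 to 6315612, minus strand) led both strains, at 3860 CPM per kb in the single and 3995 in the double knockout (log2 fold change 0.050, SE 0.155, edgeR adjusted p = 0.846). Its RefSeq span overlaps those of NCU07184 and NCU07183. NCU11348 (6246137 to 6246576) followed in the single knockout at 725 CPM per kb and stood at 576 in the double knockout, not called (edgeR adjusted p = 0.113), though called on library totals (0.0216). Among left-end genes NCU08877 (39554 to 40205) led, at 650 and 729 CPM per kb, and NCU08859 (99151 to 100197) stood at 147 and 150 CPM per kb. Neither was called (edgeR adjusted p = 0.438 and 0.909), and the direction of both, like that of NCU07182, turned on library totals. Median levels were 6.03 CPM per kb at the left and 4.88 at the right in the single knockout, and 7.10 and 12.4 in the double knockout. The right end was also denser in genes, with 35.0 counted genes per 100 kb against 20.5 at the left end and 24.3 in the rest of the chromosome.

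Of the 111 genes, 106 passed the filter on low counts. The 5 that did not, NCU08881, NCU08866, NCU07208, NCU07184 and NCU07146, had at most 14 counts in any library. In the single knockout 6 genes stood at or under 3 counts in every library, 5 of them at the right end, and in the double knockout 0 did. Counted intervals of the 111 genes overlapped no other gene, while the RefSeq spans of 29 did, none of them among the 11 outermost right-end genes. Whether counting used the strand of the libraries is not stated, so reads of such neighbours cannot be told apart with certainty.

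The other 12 chromosome ends were counted in the same way for comparison. Shares called higher there ran from 25% to 63.3% and medians of the log2 fold change from 0.12 to 1.05. The right end of linkage group V, at 34.3% and 0.23, lay within both ranges. Its share was exceeded at 8 of the other ends and its median at 9. Of its 67 tested genes, 10 were called with a rise of 8-fold or more in the fit, against 1.65% of all genes tested. The other ends held at most 6 such genes, with 6 of 50 at the right end of linkage group IV. Of the 10, 7 passed the filter on low counts through the double knockout alone, and the lower bound of NCU07145 was only 5.21-fold. The left end of linkage group V, at 12.8% and 0.030, lay below both ranges, and its share of lower calls (10.3%) lay within the range of 0% to 12.5%. These ranges are a description, since genes of one end are neighbours and not replicates.

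**Figure D5:**
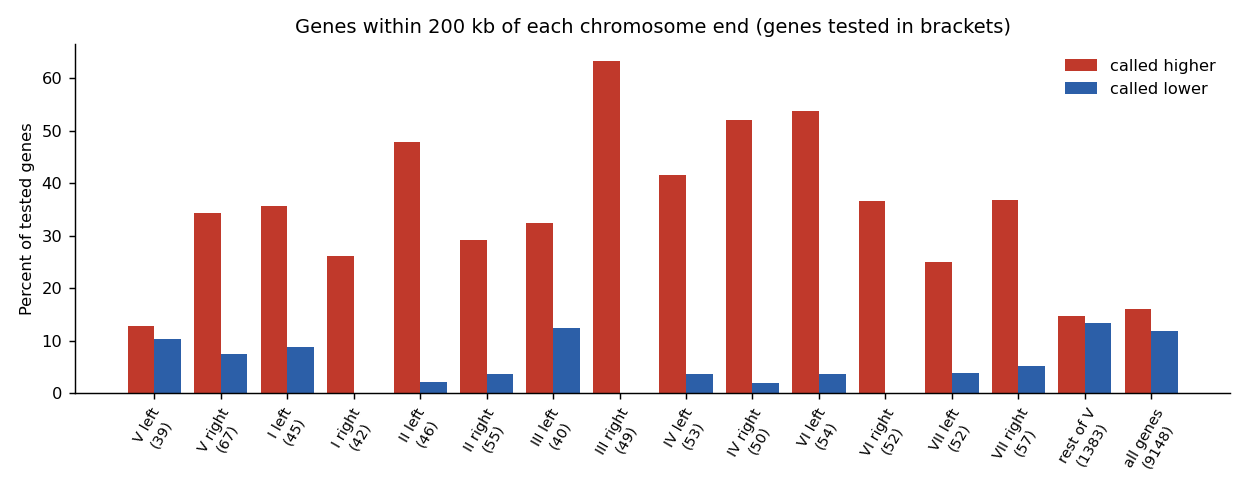
Percent of tested genes within 200 kb of each of the 14 chromosome ends that were called higher (red) or lower (blue), with the rest of linkage group V and all genes tested. The left end of linkage group V has 12.8% called higher, while the other 12 ends outside linkage group V have 25% to 63.3%.

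A list of 6 loci of the Polycomb pathway was examined beside the genes near the ends. Of these, 1 was called higher and 2 lower, where 16.1% and 11.9% of all genes were. A fall of NCU05460, read as suz-12, would follow from the knockout itself, so the counts are not read as a shift of the pathway. The lower loci were NCU05460 and cac-3 (NCU06679), which encodes a histone-binding subunit of chromatin assembly factor 1. The latter fell from 21.99 ± 1.14 to 12.3 ± 0.0811 CPM (SD, n = 3 each; log2 fold change -0.84, SE 0.163, edgeR adjusted p = 0.00100). The catalytic subunit gene of PRC2, set-7, stood at 9.38 ± 2.37 and 10.6 ± 1.32 CPM (SD, n = 3 each) and was not called (edgeR adjusted p = 0.535). NCU07505, a locus of the list to which neither table gives a name, was called higher (log2 fold change 0.68, SE 0.198, edgeR adjusted p = 0.0172).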

How the data were processed

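Libraries were made with a directional kit after TRIzol extraction, per the labels' protocols. The deposited values are raw counts per gene and library. Trim Galore 0.6.10, STAR 2.7.11, SAMtools 1.21 and featureCounts from Subread 2.0.6 are named in the submitters' processing notes. The genome build is not given in the sources used here. All counted spans of the 9723 identifiers that matched the RefSeq table of NC12 lay within the RefSeq gene, and 98.8% of the gene lengths deposited by the authors (in bp) were multiples of 3, so lengths are called coding lengths. The table held 36 further columns that matched no label and were not used.

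The comparison was the double minus the single knockout, fitted over all genes with edgeR 4.0.16 in R 4.3.3 (filterByExpr, TMM, robust quasi-likelihood test, Benjamini-Hochberg adjustment, threshold 0.05). The standard error is the log2 fold change divided by the square root of F. CPM divides counts by TMM-adjusted library sizes. DESeq2 1.42.0, limma-voom (limma 3.58.1) and other scalings, filters, depths and distances were alternatives. A gene at or under 3 counts in every library of a strain was given a lower bound, which covers counting error only. Of the values from 1 to 20 counts, 75.1% to 83.4% per library were even, so a count is not taken as 1 fragment. Replicates differed beyond counting noise (chi-square per degree of freedom 23.2 to 107).

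Replicate numbers were not taken as pairs. In simulated counts for 9757 genes, 198 of the 199 tested genes with a 4-fold change were called, with 10 false calls. Every simulated gene had the same dispersion, and only genes above a minimum total count were changed. The simulation therefore does not bear on smaller changes or on genes with almost no counts in a strain. Named genes followed a rule: NCU07152 and its neighbours, the outermost 3 genes of each end, up to 10 called rises (mean log2 CPM of 1 or more) and 4 called falls per end without overlap between strains, the ends of the longest runs, genes with a name, genes next to the limit, the 3 most abundant genes per end, and the deleted genes. NCU16911, NCU07146, NCU07155, NCU07154, NCU08866 and NCU07184 were added after their values were seen. The members, lists and rule were chosen with earlier results of these data known. A promoter motif search was not run, as sequences were not used here.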

Additional observations from a re-analysis of the deposited data

How the results depend on the processing

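Of 2569 genes called, 1038 changed by 2-fold or more and 1526 passed an adjusted p of 0.01, and the number ran from 1782 to 2674 when 1 library was left out. At the left end, higher calls were 3 at an adjusted p of 0.01, 1 within 50 kb and 3 to 6 with 1 library left out. Lower calls there were 2 with at least 10 counts in every library, 0 at 2-fold or more, 0 at an adjusted p of 0.01, 2 within 50 kb and 0 to 3 with 1 library left out. At 0.05 DESeq2 called 5 lower there, and 5 were lower at an unadjusted p under 0.05 by edgeR, for which no share over all genes was computed. With at least 10 counts in every library, 14 of 51 tested right-end genes were called higher, beside 1320 of 8388 over all genes. Higher calls at the right end were 13 within 50 kb and 17 to 24 with 1 library left out. Lower calls were 10 on library totals, 0 at 2-fold or more, 3 at 0.01, 2 within 100 kb, 1 within 50 kb and 3 to 7 with 1 library left out. The right-end median was 0.52 within 100 kb and 3.22 within 50 kb. Stricter thresholds and shorter distances lower counts by construction. Library totals moved the median of all genes to -0.20. With the replicate block 3009 genes were called, and at the right end 23 were higher and 7 lower; it also called parp (edgeR adjusted p = 0.0292). Same-numbered libraries deviated together with correlations of -0.015, 0.097 and 0.17, and not every library correlated best with its own number. Of 691 values for 44 named genes, 640 kept direction and call, 37 were weaker, 6 stronger and 8 reversed, all 8 for genes not called. NCU08877 stood at -0.036 and gh6-3 at -0.022 on library totals. NCU08859 stood at -0.16 on library totals, -0.040 with upper-quartile scaling and from -0.11 to 0.15 with 1 library left out. NCU07182 stood at -0.15, -0.022 and from -0.0071 to 0.12 in the same order. The cause was not tested for the reversals with 1 library left out. Of the higher calls, 3 of 5 at the left and 16 of 23 at the right end held in every fit that tested them, and of the lower calls 0 of 4 and 2 of 5. Among the 23, 9 had passed the filter on low counts through the double knockout alone. Depth limits low genes most in single-knockout replicate 1, where 3 counts are 0.351 CPM.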
